A study of Mus musculus with 18 samples.

Results

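Secreted ligands of the Wnt, Fgf, Bmp and Hedgehog families were examined in mouse embryonic stem cells lacking subunits of Polycomb repressive complex 1 (PRC1). The 37 genes comprised 19 Wnt, 8 Fgf, 7 Bmp and 3 Hedgehog genes. They were taken by symbol from the 56551 genes of the deposited table, and all 37 were found there. A gene was tested when it reached 1 TPM (a share of all transcripts, corrected for gene length and scaled to the same total in each library) in at least 3 of the 18 libraries, which 17842 genes did. Of the 37 ligand genes, 28 passed this filter. The 9 that did not were Wnt1, Wnt2, Wnt8b, Wnt9b, Wnt16, Fgf9, Bmp5, Shh and Dhh.

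RNA sequencing covered 6 genotypes with 3 libraries each. Ring1a-KO cells were labelled Ring1a-/- and Ring1b-KO cells Ring1b-/-, and Ring1a/b-dKO cells lacked both. Pcgf-4KO cells were Pcgf1/3/5/6-/-, Pcgf-6KO cells were Pcgf1/2/3/4/5/6-/-, and WT cells were the control. The labels name neither the clone, the medium nor the day of any library, nor do they state that the 3 libraries of 1 genotype came from separate cultures, so p-values measure the spread between these libraries only. Ring1a and Ring1b are the alternative catalytic subunits of PRC1, encoded by Ring1 and Rnf2. One of 6 Pcgf proteins is bound in each complex, and these proteins sort the complexes into canonical forms (Pcgf2 and Pcgf4) and variant forms (Pcgf1, Pcgf3, Pcgf5 and Pcgf6).

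Wnt proteins are lipid-modified ligands that bind Frizzled receptors with Lrp5 or Lrp6 and stabilise beta-catenin, or signal through Ror and Ryk receptors without it. Fgf ligands activate receptor tyrosine kinases and the ERK pathway, Bmp ligands activate Smad proteins through serine/threonine kinase receptors, and Hedgehog ligands relieve the block that Patched places on Smoothened. In the embryo each ligand is made at particular places and times. Many of these genes carry PRC1 and its histone mark at CpG-rich promoters in embryonic stem cells, where they are mostly silent or low.

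Promoter sequences from RefSeq (GRCm38.p6) were used as 29 windows for 26 of the ligand genes. Each window was read over the 250 bases before the start site. The windows held a median of 20 CpG dinucleotides, with a range of 4 to 48, against a median of 6 over all 32851 RefSeq windows of the same length. The share of windows with 10 or more CpGs was 72.4% (21 of 29) for the ligand genes and 37.8% for all windows. The motif TATAAA on either strand was found in 1 ligand window, that of Wnt11 (3.45% of the 29), and in 12.4% of all windows. No window was used for Wnt5a, Wnt7b, Wnt8a, Wnt10a, Fgf1, Fgf8, Fgf15, Fgf17, Bmp2, Bmp7 and Shh. Of these windows 6 are shown, printed 5′ to 3′ on the strand of the gene with each CpG in capitals. Wnt3a with Wnt9a and Wnt1 with Wnt10b are neighbouring pairs, Bmp4 reached the highest level of any ligand, and Bmp5 stayed near 0 in every library.
Wnt3a (chr11:59290752-59291001, minus strand, 41 CpGs): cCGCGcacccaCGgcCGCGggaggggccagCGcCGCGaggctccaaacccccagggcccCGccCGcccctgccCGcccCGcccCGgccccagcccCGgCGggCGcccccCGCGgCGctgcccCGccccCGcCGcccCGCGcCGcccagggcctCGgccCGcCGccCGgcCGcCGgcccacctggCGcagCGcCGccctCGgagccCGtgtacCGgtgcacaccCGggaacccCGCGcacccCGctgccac
Wnt9a (chr11:59306680-59306929, plus strand, 48 CpGs): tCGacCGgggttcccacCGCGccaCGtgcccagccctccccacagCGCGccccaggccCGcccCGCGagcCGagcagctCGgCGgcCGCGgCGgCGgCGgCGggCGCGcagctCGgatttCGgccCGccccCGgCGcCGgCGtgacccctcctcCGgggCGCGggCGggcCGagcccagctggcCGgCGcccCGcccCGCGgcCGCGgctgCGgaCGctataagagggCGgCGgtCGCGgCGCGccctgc
Wnt1 (chr15:98789607-98789856, plus strand, 23 CpGs): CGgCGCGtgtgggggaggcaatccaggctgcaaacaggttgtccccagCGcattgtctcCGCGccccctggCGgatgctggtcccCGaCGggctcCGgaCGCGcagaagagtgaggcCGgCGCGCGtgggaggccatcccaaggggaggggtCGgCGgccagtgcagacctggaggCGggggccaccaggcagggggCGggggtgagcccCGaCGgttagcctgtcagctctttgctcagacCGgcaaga
Wnt10b (chr15:98778151-98778400, minus strand, 14 CpGs): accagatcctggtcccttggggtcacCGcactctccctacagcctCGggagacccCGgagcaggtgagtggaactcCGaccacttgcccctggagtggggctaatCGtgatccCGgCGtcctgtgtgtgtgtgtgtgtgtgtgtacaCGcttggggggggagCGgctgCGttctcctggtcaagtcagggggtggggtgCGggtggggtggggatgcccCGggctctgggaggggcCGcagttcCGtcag
Bmp4 (chr14:46390670-46390919, minus strand, 11 CpGs): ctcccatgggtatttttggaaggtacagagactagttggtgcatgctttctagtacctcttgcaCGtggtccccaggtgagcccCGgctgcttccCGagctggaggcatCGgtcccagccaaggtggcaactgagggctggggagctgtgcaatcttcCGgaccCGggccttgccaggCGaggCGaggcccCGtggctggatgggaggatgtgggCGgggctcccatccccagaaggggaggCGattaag
Bmp5 (chr9:75775115-75775364, plus strand, 4 CpGs): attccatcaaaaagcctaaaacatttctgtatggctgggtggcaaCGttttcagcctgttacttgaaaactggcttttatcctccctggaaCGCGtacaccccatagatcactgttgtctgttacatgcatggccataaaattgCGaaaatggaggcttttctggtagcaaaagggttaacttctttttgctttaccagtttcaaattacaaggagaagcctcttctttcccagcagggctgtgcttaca

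Several facts of the whole series bear on the ligand values. The targeted transcripts were not all low: Ring1 was at 56.2% of its WT level in Ring1a-KO and 84.4% in Ring1a/b-dKO, and Rnf2 at 69.3% in Ring1b-KO and 31.9% in Ring1a/b-dKO. In the Pcgf knockouts the targeted genes ranged over 0.1% to 152% of WT in Pcgf-4KO and 20.0% to 972.6% in Pcgf-6KO (Bmi1, which encodes Pcgf4). A level summed over a whole gene cannot reveal a missing exon. How deeply any library was sequenced cannot be read from TPM. The median log2 change over all genes tested was 0.28 in Ring1a/b-dKO, 0.25 in Pcgf-4KO, 0.33 in Pcgf-6KO and 0.13 in Ring1b-KO against WT. Median ratio scaling brought these medians to 0.02 in Ring1a/b-dKO, 0.01 in Pcgf-4KO, 0.07 in Pcgf-6KO and 0.02 in Ring1b-KO, and ligand changes of the size of these shifts depend on the scaling. The share of called genes that were higher was 75.5% in Ring1a/b-dKO, 72.5% in Pcgf-4KO, 69.6% in Pcgf-6KO and 67% in Ring1b-KO as deposited. Under median ratio scaling it was 52.3% in Ring1a/b-dKO, 51% in Pcgf-4KO, 54.2% in Pcgf-6KO and 52.3% in Ring1b-KO. Under quantile normalization it was 48.2% in Ring1a/b-dKO, 49.6% in Pcgf-4KO, 46.6% in Pcgf-6KO and 46.4% in Ring1b-KO. Ring1a-KO replicates 2 and 3 held 2.721% and 1.272% of their TPM in small RNA genes, against 0.209% to 0.634% in the other 16 libraries.

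The cells kept transcripts of embryonic stem cells and differed in markers of other cell types. The summed level of 8 stem cell markers was 1854.1 to 2297.2 TPM in Pcgf-6KO, 2876.0 to 3192.6 TPM in Ring1a/b-dKO, 3701.6 to 3830.1 TPM in Pcgf-4KO and 7541.9 to 8185.4 TPM in Ring1b-KO, against 4528.6 to 4593.0 TPM in WT. Single stem cell markers went both ways: 1 was called higher and 7 lower in Pcgf-6KO, 2 and 6 in Ring1a/b-dKO, 3 and 4 in Pcgf-4KO and 5 and 3 in Ring1b-KO, and Pou5f1, Sox2 and Utf1 were lower in all 4. All 8 trophoblast markers and all 8 primitive endoderm markers were called higher in Ring1b-KO, Ring1a/b-dKO, Pcgf-4KO and Pcgf-6KO. Over all genes tested, the share called higher was 34.7% in Ring1b-KO, 48.6% in Ring1a/b-dKO, 47.1% in Pcgf-4KO and 51.7% in Pcgf-6KO. The share called lower was 17.1% in Ring1b-KO, 15.8% in Ring1a/b-dKO, 17.9% in Pcgf-4KO and 22.5% in Pcgf-6KO. Markers low in WT passed the filter mainly through knockout libraries, so their rises were partly set by the filter. The trophoblast sum was 810.0 to 833.6 TPM in Pcgf-6KO, 333.8 to 344.2 TPM in Pcgf-4KO, 312.4 to 321.0 TPM in Ring1a/b-dKO and 95.3 to 100.9 TPM in Ring1b-KO, against 24.0 to 25.0 TPM in WT. The primitive endoderm sum was 39.3 to 48.6 TPM in Pcgf-6KO, 33.9 to 38.3 TPM in Pcgf-4KO, 51.8 to 54.4 TPM in Ring1a/b-dKO and 42.3 to 44.5 TPM in Ring1b-KO, against 4.4 to 5.0 TPM in WT. In Ring1a-KO these sums were 23.4 to 24.9 and 5.9 to 6.8 TPM. The sum of 8 mesoderm markers was highest in Ring1a/b-dKO, at 29.5 to 31.5 TPM, against 10.2 to 10.7 TPM in WT, and that of 8 neuroectoderm markers was lower in those 4 knockouts, between 48.4 and 101.9 TPM, against 150.7 to 153.8 TPM in WT. That sum ran against most neuroectoderm markers in Ring1a/b-dKO, where 5 of 7 tested were called higher and 2, Neurod1 and Tubb3, lower. Pcgf-6KO had 4 higher and 2 lower, Pcgf-4KO 4 higher and 3 lower, and Ring1b-KO 3 higher and 3 lower, with Neurod1 and Tubb3 lower in each. Fibroblast markers gave 3 of 8 genes to test, and Lum and Postn averaged at most 0.12 TPM in any genotype. The part of other cell types in the ligand results was not tested, and in bulk RNA a change in the share of cells of a type and a change in RNA per cell cannot be told apart.

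Few ligands were abundant in WT cells. Of the 37 genes, 20 averaged under 0.5 TPM in WT, and Wnt1 and Wnt10a were listed at 0 in all 3 WT libraries. Fgf17 was the highest in WT, at 10.6 ± 1.06 TPM, followed by Bmp4 at 6.93 ± 0.31 TPM. The number of ligand genes averaging 1 TPM or more was 12 in Ring1a-KO, 18 in Ring1b-KO, 27 in Ring1a/b-dKO, 19 in Pcgf-4KO and 23 in Pcgf-6KO, against 12 in WT. A mean of 5 TPM or more was reached by 2 ligand genes in Ring1a-KO, 3 in Ring1b-KO, 11 in Ring1a/b-dKO, 8 in Pcgf-4KO and 8 in Pcgf-6KO, against 2 in WT. The genotype with the highest mean was Ring1a/b-dKO for 17 of the 37 genes and Pcgf-6KO for 12. Fgf17 and Fgf18 were highest in Ring1a-KO, Fgf10 and Fgf15 in Ring1b-KO, Fgf3 and Bmp4 in Pcgf-4KO, and Wnt5a and Fgf1 in WT.

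**Figure D1:**
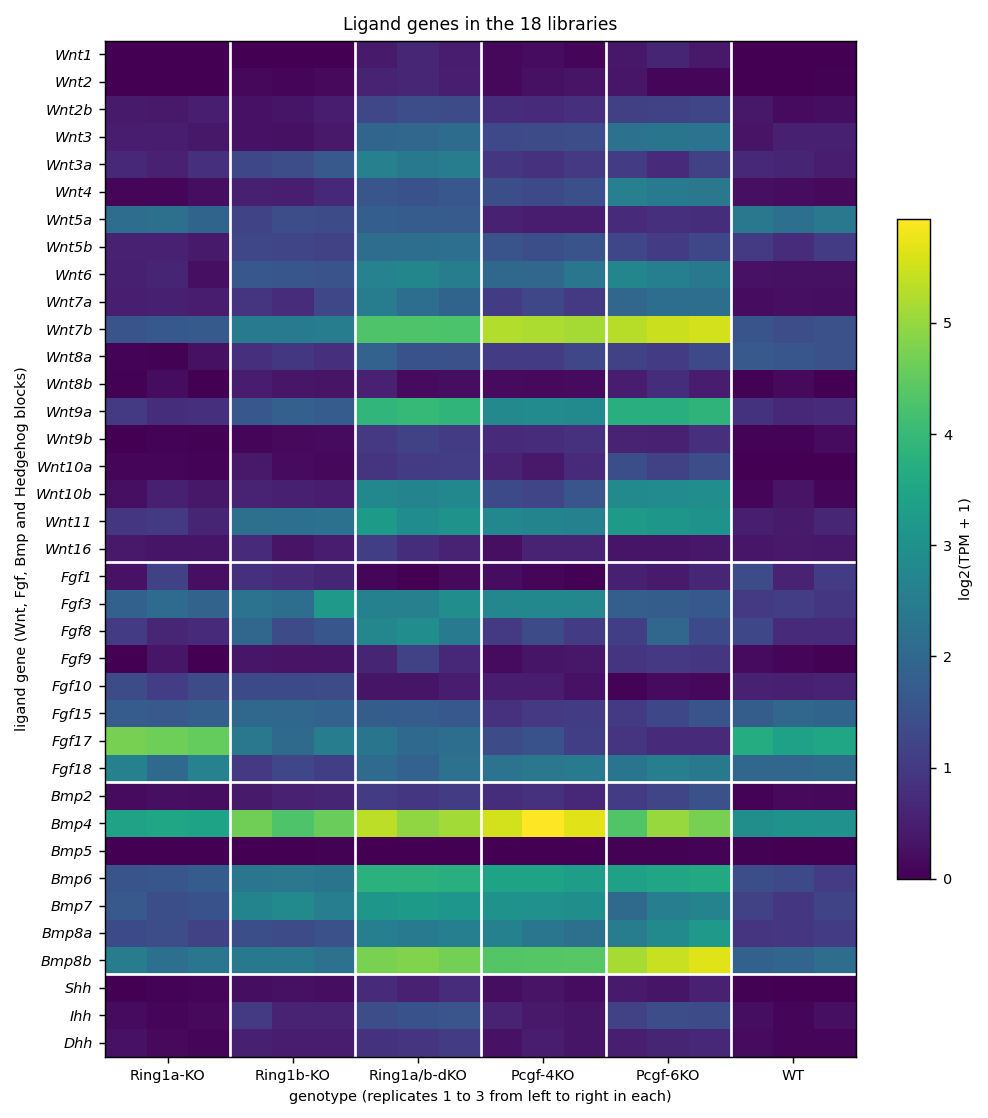
Level of each of the 37 ligand genes in the 18 libraries, as log2(TPM + 1), with genes in rows by family and libraries in columns by genotype. Wnt7b, Bmp4 and Bmp8b are the brightest rows in Ring1a/b-dKO, Pcgf-4KO and Pcgf-6KO, Fgf17 is brightest in Ring1a-KO, and Bmp5 is dark throughout.

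Summed over a family, the Bmp ligands lay above WT in all 5 knockouts and the Wnt ligands in 4, whereas the Fgf ligands lay above WT in Ring1a-KO and below it in the Pcgf knockouts. The 19 Wnt genes together gave 10.37 ± 0.69 TPM in Ring1a-KO, 21.4 ± 0.93 in Ring1b-KO, 77.48 ± 2.92 in Ring1a/b-dKO, 63.66 ± 1.0 in Pcgf-4KO and 94.44 ± 3.23 in Pcgf-6KO, against 11.92 ± 0.75 TPM in WT (SD, n = 3 each). The 7 Bmp genes gave 19.72 ± 0.34 TPM in Ring1a-KO, 37.65 ± 2.35 in Ring1b-KO, 86.96 ± 4.57 in Ring1a/b-dKO, 93.23 ± 7.49 in Pcgf-4KO and 89.68 ± 15.58 in Pcgf-6KO, against 13.47 ± 0.41 TPM in WT. The 8 Fgf genes gave 36.24 ± 1.81 TPM in Ring1a-KO, 17.72 ± 3.08 in Ring1b-KO, 21.15 ± 0.17 in Ring1a/b-dKO, 14.15 ± 0.79 in Pcgf-4KO and 12.12 ± 1.43 in Pcgf-6KO, against 19.7 ± 1.76 TPM in WT. Fgf17 carried much of this sum. The 7 Fgf genes other than Fgf17, a sum added after the values were seen, gave 12.47 ± 0.68 TPM in Ring1a-KO, 13.7 ± 2.33 in Ring1b-KO, 17.67 ± 0.36 in Ring1a/b-dKO, 12.64 ± 0.61 in Pcgf-4KO and 11.4 ± 1.54 in Pcgf-6KO, against 9.12 ± 0.7 TPM in WT. Without Fgf17 the means of the Pcgf knockouts thus also lay above WT. The lowest Pcgf-6KO library, at 9.9 TPM, was close to the highest WT library, at 9.86 TPM. The Bmp sums of Ring1a/b-dKO, Pcgf-4KO and Pcgf-6KO overlapped one another, whereas each of their libraries lay above every Ring1b-KO, Ring1a-KO and WT library. The Hedgehog sum stayed low, at 0.26 ± 0.08 TPM in Ring1a-KO, 1.25 ± 0.3 in Ring1b-KO, 3.33 ± 0.33 in Ring1a/b-dKO, 0.84 ± 0.14 in Pcgf-4KO and 2.35 ± 0.3 in Pcgf-6KO, against 0.23 ± 0.09 TPM in WT.

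Each knockout was compared with WT by limma on log2(TPM + 1), with p-values adjusted over all 17842 genes and a gene called at an adjusted p under 0.05. The ligand genes had to be read against 2 backgrounds. Of the 28 tested, 9 were at 1 TPM or more in every WT library (Wnt5a, Wnt7b, Wnt8a, Fgf15, Fgf17, Fgf18, Bmp4, Bmp6 and Bmp8b). The other 19 were under 1 TPM in at least 1 WT library and passed the filter mainly through knockout libraries, so a rise among them was partly set by the filter.

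In Ring1a-KO against WT most ligand genes were not called. Called higher were 9 of 28 and lower 2, where 12.3% and 10.8% of all genes tested were called in these directions. Among the 9 expressed in WT, 5 were higher and 1 lower (background 14.1% and 14%), and among the other 19, 4 were higher (background 6.89%) and 1 lower. Median ligand change was 0.16 on the log2 scale, and 0.01 over all genes. The count of 11 calls fell to 6 without Ring1a-KO replicate 1, without Ring1a-KO replicate 3 or without WT replicate 1, to 7 without WT replicate 2, and to 5 without both replicates 2 and 3 of Ring1a-KO. Quantile normalization gave 6 higher and 3 lower. The ligand genes with the largest rises were Fgf17, Fgf3 and Fgf10, and the largest fall was that of Wnt8a, all of which were called without each single library.

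In Ring1b-KO against WT, rises of Wnt11, Bmp7, Bmp4, Fgf3 and Wnt6 were the largest, and Fgf17, Wnt5a, Fgf18 and Wnt8a fell. In all, 19 of 28 were called higher and 4 lower, beside 34.7% and 17.1% of all genes. Of the 9 expressed in WT, 4 were higher and 4 lower (background 31.5% and 22.1%), and of the other 19, 15 were higher (background 44.4%) and 4 were not called. The median ligand change was 0.44 (0.13 over all genes). Quantile normalization gave 11 higher and 8 lower: the rises of Wnt4, Wnt5b, Wnt10b, Fgf8, Bmp2, Bmp8a, Bmp8b and Ihh were no longer called.

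Loss of both Ring1a and Ring1b gave rises in 21 of 28 ligand genes and falls in 3, beside 48.6% and 15.8% of all genes. Of the 9 expressed in WT, 4 were higher and 2 lower (background 48% and 20.2%), which is close to the background, and of the other 19, 17 were higher (background 50.5%) and 1 lower. The median ligand change was 1.56, and 0.28 over all genes. All 21 rises were also called under median ratio scaling and quantile normalization. Quantile normalization added 4 falls (Wnt8a, Fgf10, Fgf15 and Fgf18), giving 21 higher and 7 lower, and median ratio scaling added those of Fgf10 and Fgf15.

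Loss of the 4 variant Pcgf genes gave 20 ligand genes higher and 5 lower than in WT, beside 47.1% and 17.9% of all genes. Of the 9 expressed in WT, 5 were higher and 4 lower (background 46.6% and 22.9%), and of the other 19, 15 were higher (background 48.6%) and 1 lower. The median ligand change was 0.77 (0.25 over all genes). In Pcgf-4KO, median ratio scaling gave 18 higher and 6 lower, and quantile normalization 16 higher and 6 lower, ending the calls of Wnt2b, Wnt3a, Wnt5b and Fgf18. Loss of all 6 Pcgf genes gave 22 higher and 5 lower, beside 51.7% and 22.5% of all genes. Of the 9 expressed in WT, 5 were higher and 4 lower (background 47.4% and 29%), and of the other 19, 17 were higher (background 64.3%) and 1 lower. The median ligand change was 1.22 (0.33 over all genes). In Pcgf-6KO, quantile normalization gave 17 higher and 7 lower. It ended the calls of Wnt3a, Fgf3, Fgf8 and Fgf18 and turned the rise of Wnt5b (log2 fold change 0.27) into a fall (-0.35, adjusted p = 0.00458).

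**Figure D2:**
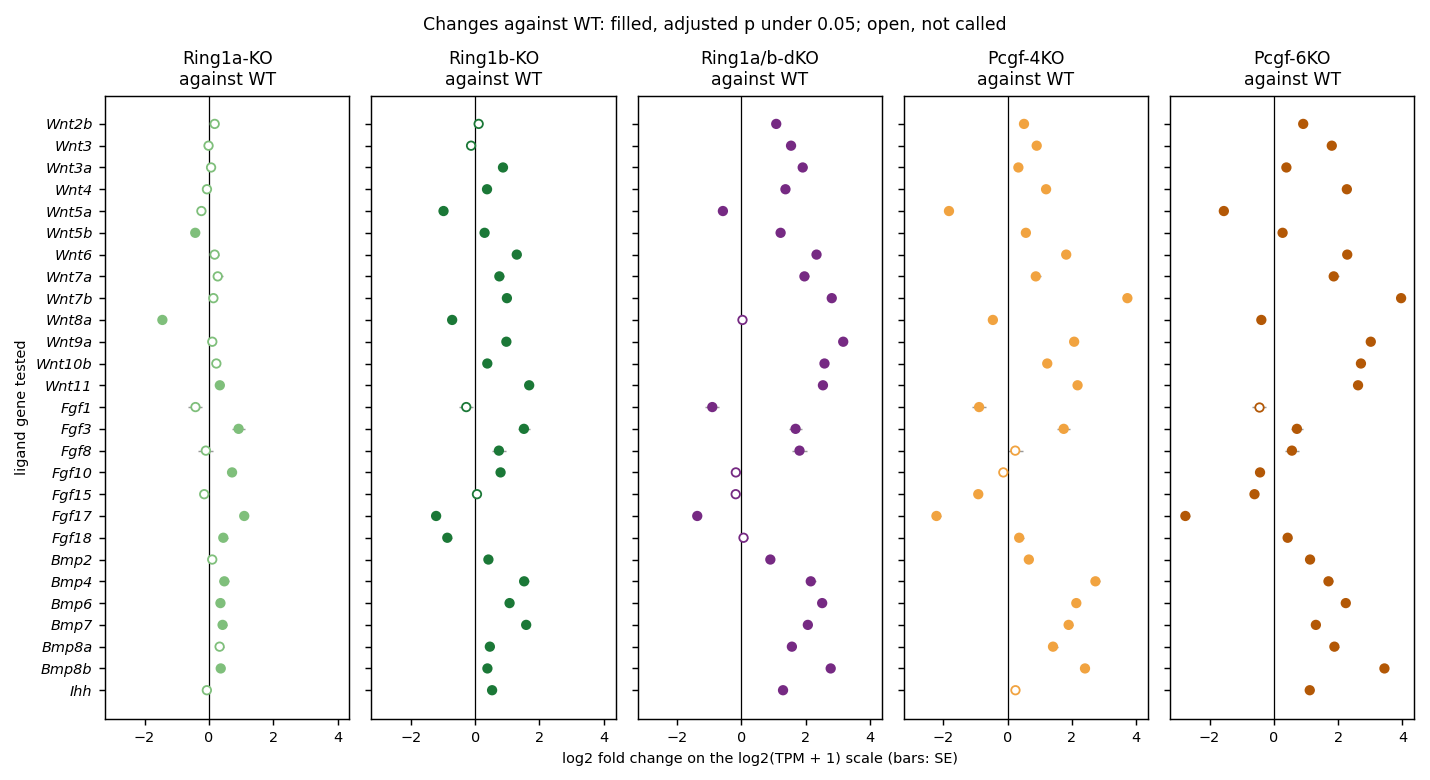
Log2 fold change of 27 tested ligand genes in each knockout against WT on the log2(TPM + 1) scale, with bars for the SE, filled points for an adjusted p under 0.05 and open points for genes not called. Wnt10a is left out because it was listed at 0 in WT. Filled points crowd to the right of 0 in Ring1a/b-dKO, Pcgf-4KO and Pcgf-6KO, except for Wnt5a, Wnt8a, Fgf1, Fgf10, Fgf15 and Fgf17.

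Among the Wnt ligands the largest changes were those of Wnt7b, Wnt9a, Wnt10b, Wnt11 and Wnt6. Wnt7b (ENSMUSG00000022382, chromosome 15, 85535437 to 85582473, minus strand, GRCm38), a ligand used in lung and placental development, was at 1.91, 2.09 and 2.21 TPM in Ring1a-KO and 4.42, 4.41 and 4.74 TPM in Ring1b-KO. It was at 18.7, 18.7 and 18.2 TPM in Ring1a/b-dKO, 37.5, 35.8 and 34.2 TPM in Pcgf-4KO and 38.5, 43.4 and 45.2 TPM in Pcgf-6KO, against 1.93, 1.65 and 1.78 TPM in WT. Only the Ring1a-KO libraries overlapped WT, and the Ring1b-KO, Ring1a/b-dKO, Pcgf-4KO and Pcgf-6KO libraries formed 4 separate steps in this order. The log2 fold change against WT was 3.96 ± 0.07 in Pcgf-6KO (adjusted p = 3.62e-16), the largest of any ligand in any comparison. It was 3.72 ± 0.07 in Pcgf-4KO (adjusted p = 1.11e-15), 2.81 ± 0.07 in Ring1a/b-dKO (adjusted p = 3.96e-14) and 0.99 ± 0.07 in Ring1b-KO (adjusted p = 1.09e-08). AU022754, a transcript on the opposite strand, shares 324 exon bases with Wnt7b and averaged at most 0.37 TPM.

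Wnt9a (ENSMUSG00000000126, chromosome 11, 59306928 to 59333552, plus strand), known for its role in joint formation, had 14.0, 14.7 and 13.8 TPM in Ring1a/b-dKO, 5.89, 6.23 and 6.13 TPM in Pcgf-4KO and 12.2, 12.2 and 13.6 TPM in Pcgf-6KO, against 0.83, 0.61 and 0.63 TPM in WT. The single knockouts had 1.02, 0.71 and 0.73 TPM (Ring1a-KO) and 2.07, 2.55 and 2.32 TPM (Ring1b-KO). Here Pcgf-4KO libraries reached less than the lowest Ring1a/b-dKO or Pcgf-6KO library. Log2 fold changes against WT were 3.17 ± 0.09 in Ring1a/b-dKO (adjusted p = 1.57e-13), 2.07 ± 0.09 in Pcgf-4KO (adjusted p = 1.76e-11) and 3.01 ± 0.09 in Pcgf-6KO (adjusted p = 1.13e-13).

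Wnt10b (ENSMUSG00000022996, chromosome 15, 98770712 to 98778150, minus strand), a ligand that holds back fat cell formation, was at 5.82, 5.37 and 5.79 TPM in Ring1a/b-dKO, 1.52, 1.38 and 1.96 TPM in Pcgf-4KO and 6.04, 6.25 and 6.48 TPM in Pcgf-6KO, against 0.05, 0.24 and 0.05 TPM in WT. It was at 0.18, 0.43 and 0.31 TPM in Ring1a-KO and 0.5, 0.43 and 0.4 TPM in Ring1b-KO. Wnt10b passed 5 TPM only in Ring1a/b-dKO and Pcgf-6KO libraries, and Pcgf-4KO libraries lay between these and the single knockouts. Its log2 fold change against WT was 2.58 ± 0.10 in Ring1a/b-dKO (adjusted p = 1.18e-11), 2.71 ± 0.10 in Pcgf-6KO (adjusted p = 3.16e-12) and 0.38 ± 0.10 in Ring1b-KO (adjusted p = 0.00664).

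Wnt11 (ENSMUSG00000015957, chromosome 7, 98835112 to 98855195, plus strand), a ligand that acts largely without beta-catenin in cell movement, was the largest ligand rise of Ring1b-KO. It had 0.93, 1.01 and 0.54 TPM in Ring1a-KO, 3.57, 3.51 and 3.71 TPM in Ring1b-KO and 8.41, 6.39 and 7.28 TPM in Ring1a/b-dKO. The Pcgf knockouts had 5.85, 5.45 and 5.15 TPM (Pcgf-4KO) and 8.41, 7.83 and 7.22 TPM (Pcgf-6KO), and WT had 0.42, 0.34 and 0.55 TPM. Every Ring1b-KO library lay above every Ring1a-KO and WT library, whereas 1 Ring1a-KO library, at 0.54 TPM, lay within the WT range. Log2 fold changes were 1.68 ± 0.11 in Ring1b-KO (adjusted p = 7.29e-09) and 2.62 ± 0.11 in Pcgf-6KO (adjusted p = 1.08e-11). The rise of 0.34 in Ring1a-KO (adjusted p = 0.0398) was not called without Ring1a-KO replicate 1 or 2 or without WT replicate 1 or 2.

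Wnt6 (ENSMUSG00000033227, chromosome 1, 74771892 to 74785322, plus strand), a Wnt of surface ectoderm and early endoderm, was at 2.04, 2.02 and 1.87 TPM in Ring1b-KO, 5.16, 5.65 and 4.62 TPM in Ring1a/b-dKO, 3.01, 2.91 and 4.04 TPM in Pcgf-4KO and 5.64, 4.89 and 4.26 TPM in Pcgf-6KO, against 0.23, 0.2 and 0.21 TPM in WT. Ring1a-KO libraries had 0.44, 0.52 and 0.18 TPM, with 1 of 3 below the WT range. The changes from WT were 2.34 ± 0.12 in Ring1a/b-dKO (adjusted p = 2.38e-10) and 2.28 ± 0.12 in Pcgf-6KO (adjusted p = 1.65e-10) on the log2 scale.

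**Figure D3:**
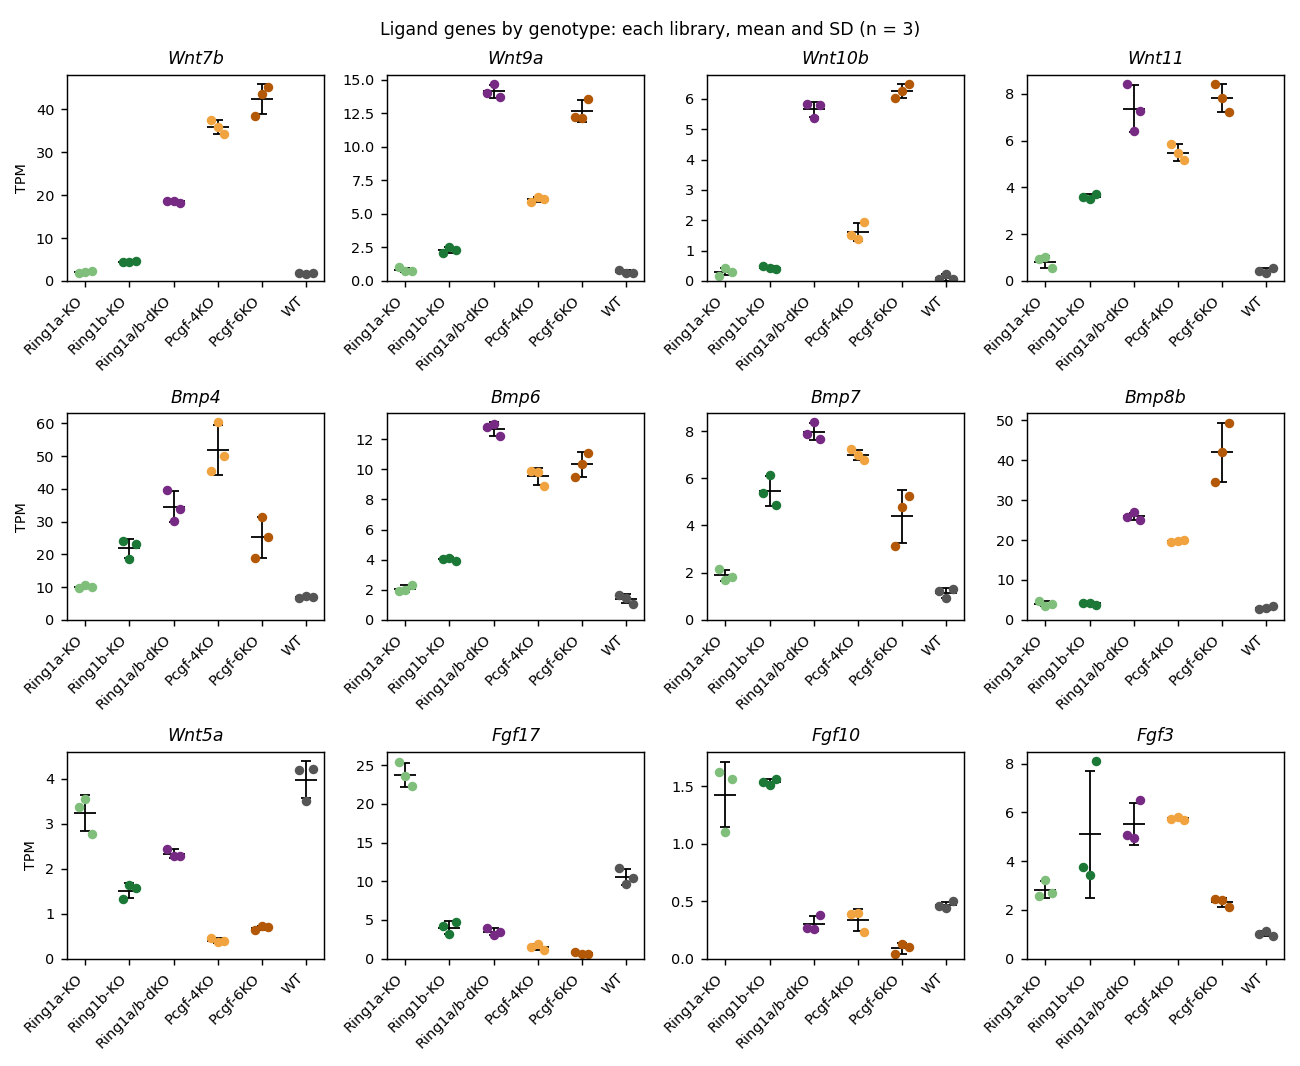
TPM of 12 ligand genes in each library by genotype, with a horizontal line for the mean and bars for the SD of 3 libraries. Wnt7b climbs in 4 steps to 42.4 TPM in Pcgf-6KO, Bmp4 peaks in Pcgf-4KO at 52.0 TPM, Wnt5a and Fgf17 are lowest in the Pcgf knockouts, and 1 Ring1b-KO library stands apart for Fgf3 at 8.11 TPM.

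Wnt3, Wnt4 and Wnt7a rose to a few TPM. Wnt3, needed for the start of gastrulation, had 2.83, 2.87 and 3.31 TPM in Ring1a/b-dKO, 1.49, 1.55 and 1.66 TPM in Pcgf-4KO and 3.61, 3.94 and 3.79 TPM in Pcgf-6KO. It had 0.37, 0.4 and 0.31 TPM in Ring1a-KO and 0.23, 0.21 and 0.33 TPM in Ring1b-KO, against 0.25, 0.43 and 0.44 TPM in WT. Both single knockouts thus overlapped WT. Wnt4, required in kidney and female gonad development, was at 5.04, 4.48 and 4.11 TPM in Pcgf-6KO, 1.68, 1.47 and 1.74 TPM in Pcgf-4KO and 2.0, 1.82 and 2.08 TPM in Ring1a/b-dKO, against 0.18, 0.15 and 0.11 TPM in WT. Wnt4 was thus higher in every Pcgf-6KO library than in any other library. In Wnt7a, which patterns the limb and acts in the reproductive tract, levels of 4.63, 3.41 and 2.74 TPM in Ring1a/b-dKO overlapped 2.87, 3.41 and 3.43 TPM in Pcgf-6KO, and both stood above 1.03, 1.4 and 1.0 TPM in Pcgf-4KO and 0.14, 0.19 and 0.16 TPM in WT. Log2 fold changes in Pcgf-6KO against WT were 1.80 ± 0.09 for Wnt3 (adjusted p = 4.67e-11), 2.27 ± 0.09 for Wnt4 (adjusted p = 5.81e-12) and 1.86 ± 0.15 for Wnt7a (adjusted p = 1.77e-08).

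Wnt3a and Wnt5b were highest in Ring1a/b-dKO and called lower in both Pcgf knockouts than there, as were Wnt8a, Fgf8 and Bmp6. Wnt3a, which maintains the progenitors of the trunk and tail, had 5.01, 4.3 and 4.67 TPM in Ring1a/b-dKO, 0.93, 0.8 and 0.98 TPM in Pcgf-4KO and 1.09, 0.67 and 1.21 TPM in Pcgf-6KO, against 0.61, 0.53 and 0.39 TPM in WT. Ring1b-KO libraries, at 1.46, 1.65 and 2.18 TPM, lay above every Pcgf-knockout library, and Ring1a-KO libraries had 0.57, 0.45 and 0.73 TPM. The change from WT was 1.91 ± 0.12 in Ring1a/b-dKO (adjusted p = 2.89e-09). It was 0.39 ± 0.12 in Pcgf-6KO (adjusted p = 0.0107), a call that median ratio scaling and quantile normalization ended. Wnt5b, a close relative of Wnt5a, was at 3.38, 3.42 and 3.48 TPM in Ring1a/b-dKO, 1.92, 1.67 and 1.87 TPM in Pcgf-4KO and 1.41, 1.09 and 1.4 TPM in Pcgf-6KO, against 1.0, 0.69 and 1.03 TPM in WT. In Ring1a-KO it fell to 0.45, 0.46 and 0.34 TPM (log2 fold change -0.42 ± 0.09, adjusted p = 0.00385).

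The remaining tested Wnt genes that rose were Wnt2b and Wnt10a. Wnt2b averaged 1.54 ± 0.12 TPM in Ring1a/b-dKO, 0.71 ± 0.08 TPM in Pcgf-4KO and 1.26 ± 0.09 TPM in Pcgf-6KO, against 0.2 ± 0.1 TPM in WT. Wnt10a, a Wnt of skin and teeth, had 1.68, 1.24 and 1.64 TPM in Pcgf-6KO, 0.51, 0.32 and 0.63 TPM in Pcgf-4KO and 0.86, 1.05 and 1.1 TPM in Ring1a/b-dKO. It was listed at 0 in every WT library, so no fold change is given. The 5 untested Wnt genes averaged at most 1.09 TPM in any genotype (Wnt9b in Ring1a/b-dKO), and Wnt1 averaged 0.42 ± 0.11 TPM in Ring1a/b-dKO and 0.38 ± 0.13 TPM in Pcgf-6KO. Wnt1 was also listed at 0 in all Ring1a-KO and Ring1b-KO libraries.

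Wnt5a and Wnt8a ran against the rest of the family. Wnt5a (ENSMUSG00000021994, chromosome 14, 28504750 to 28527448, plus strand), which steers cell polarity and outgrowth mostly without beta-catenin, was at 3.38, 3.54 and 2.78 TPM in Ring1a-KO, 1.33, 1.63 and 1.58 TPM in Ring1b-KO and 2.44, 2.29 and 2.27 TPM in Ring1a/b-dKO. It was at 0.46, 0.36 and 0.39 TPM in Pcgf-4KO and 0.64, 0.73 and 0.7 TPM in Pcgf-6KO, against 4.2, 3.5 and 4.22 TPM in WT. Every library of the last 4 knockouts lay below every WT library, and the Pcgf knockouts lay lowest. Log2 fold changes were -1.82 ± 0.09 in Pcgf-4KO (adjusted p = 1.55e-10), -1.55 ± 0.09 in Pcgf-6KO (adjusted p = 5.25e-10), -0.98 ± 0.09 in Ring1b-KO (adjusted p = 3.48e-07) and -0.57 ± 0.09 in Ring1a/b-dKO (adjusted p = 5.54e-05). These falls were called under every scaling tried.

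Wnt8a, a ligand of the early primitive streak, was the ligand lowered most in Ring1a-KO. Its libraries had 0.04, 0.03 and 0.21 TPM in Ring1a-KO, 0.77, 0.94 and 0.73 TPM in Ring1b-KO and 2.65, 1.8 and 1.76 TPM in Ring1a/b-dKO, against 2.14, 2.03 and 1.76 TPM in WT. The double knockout thus overlapped WT while both single knockouts lay below it. Log2 fold changes were -1.45 ± 0.12 in Ring1a-KO (adjusted p = 7.93e-07), -0.71 ± 0.12 in Ring1b-KO (adjusted p = 0.000187) and 0.03 ± 0.12 in Ring1a/b-dKO (adjusted p = 0.83). Under quantile normalization Wnt8a was lower in Ring1a/b-dKO as well (-0.52, adjusted p = 0.00205). In the Pcgf knockouts it had 1.06, 1.04 and 1.41 TPM (Pcgf-4KO) and 1.25, 1.09 and 1.49 TPM (Pcgf-6KO).

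All 6 tested Bmp ligands were higher than in WT in Ring1b-KO, Ring1a/b-dKO, Pcgf-4KO and Pcgf-6KO, and 4 of 6 in Ring1a-KO. Of all genes tested, 34.7% were called higher in Ring1b-KO, 48.6% in Ring1a/b-dKO, 47.1% in Pcgf-4KO, 51.7% in Pcgf-6KO and 12.3% in Ring1a-KO. Bmp2, Bmp7 and Bmp8a were under 1 TPM in at least 1 WT library, so their rises were partly set by the filter. The 6 rises in Ring1a/b-dKO, Pcgf-4KO and Pcgf-6KO were also called under median ratio scaling and quantile normalization, whereas quantile normalization left 3 of 6 in Ring1b-KO (Bmp4, Bmp6 and Bmp7). Bmp4 (ENSMUSG00000021835, chromosome 14, 46383520 to 46390669, minus strand), which acts in mesoderm and germ cell formation and in cultures of embryonic stem cells, had 9.68, 10.5 and 9.96 TPM in Ring1a-KO, 24.1, 18.6 and 23.0 TPM in Ring1b-KO and 39.7, 30.1 and 33.9 TPM in Ring1a/b-dKO. It had 45.5, 60.3 and 50.03 TPM in Pcgf-4KO and 19.0, 31.5 and 25.3 TPM in Pcgf-6KO, against 6.6, 7.21 and 6.97 TPM in WT. No knockout library of Bmp4 overlapped WT, and the Pcgf-6KO libraries overlapped those of Ring1b-KO and Ring1a/b-dKO. Log2 fold changes against WT were 2.73 ± 0.15 in Pcgf-4KO (adjusted p = 4.94e-10), 2.16 ± 0.15 in Ring1a/b-dKO (adjusted p = 7.14e-09), 1.70 ± 0.15 in Pcgf-6KO (adjusted p = 7.11e-08) and 1.52 ± 0.15 in Ring1b-KO (adjusted p = 7.25e-07). The rise of 0.48 in Ring1a-KO (adjusted p = 0.0346) was lost whichever single library of Ring1a-KO or WT was left out. Without Ring1a-KO replicate 1 the calls of Bmp7 and Bmp8b in Ring1a-KO were lost as well, as they were without Ring1a-KO replicate 3, WT replicate 1 or WT replicate 2, and that of Bmp6 was lost without Ring1a-KO replicate 3 or WT replicate 3.

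Bmp8b (ENSMUSG00000002384, chromosome 4, 123105165 to 123132099, plus strand), known for its part in germ cell development and brown fat, showed a different order. Its libraries had 25.8, 26.9 and 25.0 TPM in Ring1a/b-dKO, 19.5, 19.9 and 20.0 TPM in Pcgf-4KO and 34.6, 42.1 and 49.4 TPM in Pcgf-6KO. They had 4.75, 3.49 and 4.03 TPM in Ring1a-KO and 4.32, 4.29 and 3.75 TPM in Ring1b-KO, against 2.61, 2.85 and 3.35 TPM in WT. The single knockouts stayed under 5 TPM, and each library of the other 3 knockouts lay above 19 TPM. The log2 fold change was 3.44 ± 0.11 in Pcgf-6KO (adjusted p = 6.02e-13) and 2.78 ± 0.11 in Ring1a/b-dKO (adjusted p = 1.6e-11). Bmp8a, its neighbour 180546 bases away, had 4.93, 4.56 and 4.88 TPM in Ring1a/b-dKO, 5.06, 4.0 and 3.6 TPM in Pcgf-4KO and 4.69, 6.11 and 8.18 TPM in Pcgf-6KO, against 0.87, 0.93 and 1.05 TPM in WT. The paralogs share 210 stretches of 50 bases (8.7% of those of Bmp8a and 5.5% of those of Bmp8b), so reads may have been divided between them and both levels are uncertain. Bmp8b also overlaps Ppie by 133 exon bases and Gm17244 by 339, both on the opposite strand. Ppie averaged 68.4 to 83.7 TPM across genotypes. Gm17244 averaged 6.65 ± 0.02 TPM in Pcgf-6KO and 1.99 ± 0.18 TPM in Ring1a/b-dKO, against 0.79 ± 0.25 TPM in WT. The part of these overlaps in the Bmp8b level was not tested.

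Bmp6 and Bmp7, which signal in bone, kidney and eye among other tissues, rose together with Bmp4 in Ring1b-KO. Bmp6 (ENSMUSG00000039004, chromosome 13, 38345107 to 38500302, plus strand) was at 1.91, 2.01 and 2.31 TPM in Ring1a-KO, 4.06, 4.13 and 3.91 TPM in Ring1b-KO, 12.8, 13.0 and 12.2 TPM in Ring1a/b-dKO, 9.92, 9.83 and 8.89 TPM in Pcgf-4KO and 9.49, 10.4 and 11.1 TPM in Pcgf-6KO, against 1.68, 1.48 and 1.07 TPM in WT. Bmp7 (ENSMUSG00000008999, chromosome 2, 172868012 to 172940321, minus strand) was at 2.14, 1.7 and 1.81 TPM in Ring1a-KO, 5.39, 6.13 and 4.86 TPM in Ring1b-KO, 7.89, 8.38 and 7.68 TPM in Ring1a/b-dKO, 7.23, 6.97 and 6.77 TPM in Pcgf-4KO and 3.13, 4.77 and 5.26 TPM in Pcgf-6KO, against 1.21, 0.92 and 1.32 TPM in WT. Both genes stood above WT in every knockout library, and Bmp7 varied most in Pcgf-6KO. In Ring1a/b-dKO the log2 fold changes were 2.51 ± 0.09 for Bmp6 (adjusted p = 4.58e-12) and 2.07 ± 0.13 for Bmp7 (adjusted p = 2.21e-09). Bmp6 shares 224 exon bases with Txndc5 on the opposite strand, which ranged from 63.1 to 80.7 TPM between genotypes, and whether counting used strand is not given in the sources used here. Bmp2, a partner of Bmp4 in early mesoderm, reached 1.38 ± 0.37 TPM in Pcgf-6KO and 1.02 ± 0.09 TPM in Ring1a/b-dKO, against 0.08 ± 0.04 TPM in WT. Bmp5 averaged at most 0.03 TPM in any genotype.

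The Fgf ligands moved in different directions. Fgf17 (ENSMUSG00000022101, chromosome 14, 70636203 to 70642268, minus strand), a member of the Fgf8 subfamily that acts in the midbrain and hindbrain, had 25.4, 23.6 and 22.3 TPM in Ring1a-KO, 4.18, 3.17 and 4.73 TPM in Ring1b-KO and 3.97, 3.08 and 3.39 TPM in Ring1a/b-dKO. It had 1.55, 1.84 and 1.14 TPM in Pcgf-4KO and 0.86, 0.63 and 0.67 TPM in Pcgf-6KO, against 11.7, 9.6 and 10.5 TPM in WT. Ring1a-KO libraries lay above WT by a wide margin, and every library of the other 4 knockouts lay below it. Log2 fold changes were 1.10 ± 0.13 in Ring1a-KO (adjusted p = 2.09e-05) but -1.21 ± 0.13 in Ring1b-KO (adjusted p = 1.44e-06), -1.37 ± 0.13 in Ring1a/b-dKO (adjusted p = 1.88e-07), -2.21 ± 0.13 in Pcgf-4KO (adjusted p = 8.27e-10) and -2.75 ± 0.13 in Pcgf-6KO (adjusted p = 3.47e-11). All of these calls were kept under median ratio scaling and quantile normalization.

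Fgf10 and Fgf3 also rose in Ring1a-KO. Fgf10, the ligand that drives branching of the lung and limb outgrowth, was at 1.62, 1.1 and 1.56 TPM in Ring1a-KO, 1.54, 1.51 and 1.56 TPM in Ring1b-KO and 0.27, 0.26 and 0.38 TPM in Ring1a/b-dKO, against 0.46, 0.44 and 0.5 TPM in WT. Each single knockout lay above WT and the double knockout below it, with no overlap in any case. The log2 fold changes were 0.72 ± 0.10 in Ring1a-KO (adjusted p = 8.6e-05), 0.79 ± 0.10 in Ring1b-KO (adjusted p = 7.37e-06) and -0.17 ± 0.10 in Ring1a/b-dKO (adjusted p = 0.143). The last of these did not pass the test here but was called under median ratio scaling and quantile normalization. The Pcgf knockouts had 0.39, 0.4 and 0.23 TPM (Pcgf-4KO) and 0.04, 0.13 and 0.1 TPM (Pcgf-6KO). Fgf3, which acts in inner ear and tail development, was at 2.58, 3.22 and 2.69 TPM in Ring1a-KO, 3.76, 3.42 and 8.11 TPM in Ring1b-KO, 5.08, 4.97 and 6.5 TPM in Ring1a/b-dKO, 5.75, 5.81 and 5.7 TPM in Pcgf-4KO and 2.45, 2.39 and 2.11 TPM in Pcgf-6KO, against 1.01, 1.12 and 0.92 TPM in WT. All knockout libraries stood above WT. Log2 fold changes were 0.92 ± 0.20 in Ring1a-KO (adjusted p = 0.00326) and 1.74 ± 0.20 in Pcgf-4KO (adjusted p = 1.42e-06), and the rise of 0.72 in Pcgf-6KO (adjusted p = 0.00404) was not called under quantile normalization.

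Fgf8, essential for gastrulation and limb and brain patterning, was raised mainly in the double knockout. It had 5.71, 6.5 and 4.55 TPM in Ring1a/b-dKO and 2.88, 1.6 and 2.0 TPM in Ring1b-KO, against 1.45, 0.63 and 0.63 TPM in WT. Ring1a-KO had 1.06, 0.56 and 0.66 TPM, Pcgf-4KO 1.0, 1.59 and 1.06 TPM and Pcgf-6KO 1.15, 2.88 and 1.51 TPM, all overlapping WT. The change of 1.81 ± 0.23 in Ring1a/b-dKO (adjusted p = 4.73e-06) was called under every scaling. That of 0.56 ± 0.23 in Pcgf-6KO (adjusted p = 0.0373) became 0.32 and was not called without Pcgf-6KO replicate 2, and was not called without WT replicate 2 or 3 either. The rise of 0.74 in Ring1b-KO was not called without Ring1b-KO replicate 1 or without WT replicate 2 or 3.

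Fgf15, Fgf18 and Fgf1 completed the tested Fgf genes. Fgf15, the mouse counterpart of human FGF19 and a regulator of bile acid synthesis, had 0.81, 0.99 and 1.06 TPM in Pcgf-4KO and 1.01, 1.43 and 1.9 TPM in Pcgf-6KO, against 2.37, 2.87 and 2.79 TPM in WT (log2 fold changes -0.91 ± 0.12 in Pcgf-4KO and -0.60 ± 0.12 in Pcgf-6KO, adjusted p = 4.97e-06 and 0.000238). Fgf18, a ligand of cartilage and lung, had 5.1, 3.11 and 5.22 TPM in Ring1a-KO, 0.99, 1.39 and 1.14 TPM in Ring1b-KO and 3.2, 2.62 and 3.65 TPM in Ring1a/b-dKO, against 2.86, 2.87 and 3.12 TPM in WT. Fgf18 fell in Ring1b-KO, with a log2 fold change of -0.87 ± 0.14 (adjusted p = 0.00012), and the double knockout was higher than Ring1b-KO by 0.93 ± 0.14 (adjusted p = 4.55e-05). The Pcgf knockouts had 3.78, 4.09 and 4.35 TPM (Pcgf-4KO) and 3.93, 4.82 and 4.24 TPM (Pcgf-6KO), above WT, but these rises were not called under median ratio scaling or quantile normalization. Fgf1, a ligand that can bind all Fgf receptors, was at 0.08, 0 and 0.11 TPM in Ring1a/b-dKO and 0.14, 0.06 and 0.03 TPM in Pcgf-4KO, against 1.58, 0.5 and 1.03 TPM in WT. Its single libraries spread widely, with 1 Ring1a-KO library at 1.27 TPM beside 0.22 and 0.19 TPM. Fgf9 averaged at most 0.93 TPM, in Pcgf-6KO.

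Of the Hedgehog ligands only Ihh, which controls cartilage growth and is made by visceral endoderm, passed the filter. Ihh was at 1.01, 0.48 and 0.5 TPM in Ring1b-KO, 1.66, 1.81 and 1.95 TPM in Ring1a/b-dKO, 0.49, 0.32 and 0.26 TPM in Pcgf-4KO and 1.25, 1.64 and 1.56 TPM in Pcgf-6KO, against 0.16, 0.08 and 0.19 TPM in WT. Ring1a-KO libraries had 0.12, 0.05 and 0.11 TPM and overlapped WT. Ihh rose in Ring1a/b-dKO (log2 fold change 1.30 ± 0.12, adjusted p = 1.64e-07), Pcgf-6KO (1.12 ± 0.12, adjusted p = 6e-07) and Ring1b-KO (0.53 ± 0.12, adjusted p = 0.00189, not called under quantile normalization), and did not pass the test in Pcgf-4KO (0.24 ± 0.12, adjusted p = 0.0899). Shh, the ligand of the notochord and limb, averaged 0.6 ± 0.13 TPM in Ring1a/b-dKO, against 0.01 ± 0.01 TPM in WT, and Dhh, the ligand of testis and nerve sheath, 0.93 ± 0.13 TPM, against 0.08 ± 0.05 TPM in WT. Dhh shares 546 exon bases with Rhebl1 on the same strand, which reached 32.0 TPM, so its low level is uncertain.

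Ring1a/b-dKO was compared with Ring1b-KO, in which Ring1a was not targeted. The interaction term asked whether the double knockout differed from the sum of the single knockouts. Rnf2 was at 69.3% of WT in Ring1b-KO and 31.9% in Ring1a/b-dKO. The further loss of Ring1a and other differences between these cells therefore cannot be told apart. Bmp8b, Wnt10b, Wnt9a, Wnt7b and Wnt3 were raised most in Ring1a/b-dKO over Ring1b-KO. Called higher were 23 of 28 ligand genes and lower 2 (Fgf10 and Fgf1), beside 41.1% and 18.8% of all genes, with a median of 0.93 for the ligand genes and 0.17 over all genes. Of the 9 expressed in WT, 7 were higher, and of the other 19, 16 were higher and 2 lower. Those 19 passed the filter mainly through knockout libraries, so a rise among them was partly set by the filter. All 14 tested Wnt genes were higher. The log2 fold changes were 2.40 ± 0.11 for Bmp8b (adjusted p = 1.69e-10), 2.21 ± 0.10 for Wnt10b (adjusted p = 1.44e-10) and 2.20 ± 0.09 for Wnt9a (adjusted p = 2.01e-11). Fgf10 fell, with a log2 fold change of -0.96 ± 0.10 (adjusted p = 7.13e-07), and the fall of Fgf1 (-0.63 ± 0.22, adjusted p = 0.0216) was not called under quantile normalization or without Ring1b-KO replicate 1 or Ring1a/b-dKO replicate 2.

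The interaction was called positive for 20 of 28 ligand genes and negative for 3, beside 33.2% and 15.5% of all genes (medians 0.81 and 0.15). Of the 9 expressed in WT, 5 were positive and 1 negative. Of the other 19, 15 were positive and 2 negative, and positive terms among these were partly set by the filter. With a pseudocount of 0.1 in place of 1, 17 of the 28 were called positive and 3 negative. The positive terms included all 14 tested Wnt genes, and the 3 negative ones were Fgf10, Fgf17 and Fgf3. The largest were 2.20 ± 0.18 for Wnt8a (adjusted p = 1.11e-07), 2.09 ± 0.12 for Wnt9a (adjusted p = 4.14e-09), 2.03 ± 0.16 for Bmp8b (adjusted p = 1.09e-07) and 1.97 ± 0.15 for Wnt10b (adjusted p = 5.12e-08). Wnt8a fell in both single knockouts and did not pass the test in the double knockout, whereas for Wnt9a, Bmp8b and Wnt10b every double-knockout library lay above every single-knockout library. Bmp4 and Bmp7 gave 0.16 ± 0.22 (adjusted p = 0.582) and 0.05 ± 0.19 (adjusted p = 0.831), so no departure from the sum passed the test for them. The Fgf3 term of -0.75 ± 0.28 (adjusted p = 0.0361) became -0.42 without the Ring1b-KO library at 8.11 TPM (replicate 3), and its call was lost when any 1 of 6 other libraries was left out. This contrast shares libraries with the comparisons against WT and Ring1b-KO.

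Pcgf-6KO against Pcgf-4KO asked what the loss of Pcgf2 and Pcgf4 added to the loss of the variant subunits. Wnt10b, Wnt4, Bmp8b, Wnt7a and Wnt9a were higher with all 6 genes targeted, and Bmp4, Fgf3, Bmp7, Fgf17 and Fgf10 were lower. In all 16 of 28 were called higher and 6 lower, beside 28.8% and 24% of all genes, with medians of 0.36 for the ligand genes and 0.03 over all genes. Of the 9 expressed in WT, 4 were higher and 2 lower, and of the other 19, 12 were higher and 4 lower. Those 19 passed the filter mainly through knockout libraries, so calls among them were partly set by the filter. Quantile normalization gave 9 higher and 6 lower. The call of Fgf10 (-0.30, adjusted p = 0.02) was lost without Pcgf-4KO replicate 1, Pcgf-4KO replicate 2 or Pcgf-6KO replicate 1. Log2 fold changes were 1.48 ± 0.10 for Wnt10b (adjusted p = 1.84e-08), 1.07 ± 0.09 for Wnt4 (adjusted p = 1.5e-07) and 1.03 ± 0.11 for Bmp8b (adjusted p = 2.42e-06). They were -1.03 ± 0.15 for Bmp4 (adjusted p = 4.41e-05) and -1.03 ± 0.20 for Fgf3 (adjusted p = 0.000457). The libraries of these 5 genes did not overlap between the genotypes, as the per-library values above show.

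The Pcgf knockouts were also set against Ring1a/b-dKO, in which the catalytic subunits rather than the Pcgf subunits were targeted. In Pcgf-4KO, 2 of 28 ligand genes were higher (Wnt7b and Bmp4) and 18 lower, beside 15.3% and 22.1% of all genes, with medians of -0.46 and -0.04. Of the 9 expressed in WT, 2 were higher and 6 lower, and of the other 19, 0 were higher and 12 lower. Those 19 passed the filter mainly through knockout libraries, Ring1a/b-dKO among them, so falls from Ring1a/b-dKO were partly set by the filter. Wnt7b was higher by 0.91 ± 0.07 (adjusted p = 1.03e-07) and Bmp4 by 0.57 ± 0.15 (adjusted p = 0.00847) on the log2 scale. The largest falls were those of Wnt3a (-1.57 ± 0.12, adjusted p = 2.01e-07), Fgf8 (-1.57 ± 0.23, adjusted p = 8.28e-05), Wnt10b (-1.35 ± 0.10, adjusted p = 1.4e-07), Wnt5a (-1.25 ± 0.09, adjusted p = 9.73e-08) and Wnt9a (-1.10 ± 0.09, adjusted p = 1.93e-07).

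In Pcgf-6KO against Ring1a/b-dKO, 6 of 28 ligand genes were higher and 12 lower, beside 28.3% and 29.6% of all genes, with medians of -0.16 and -0.01. Of the 9 expressed in WT, 3 were higher and 6 lower, and of the other 19, 3 were higher and 6 lower. Calls among these 19 were partly set by the filter, which they passed mainly through knockout libraries. Higher were Wnt7b (1.15 ± 0.07, adjusted p = 2.24e-09), Wnt4 (0.90 ± 0.09, adjusted p = 8.38e-07) and Bmp8b (0.66 ± 0.11, adjusted p = 0.000156), and by less Fgf18, Wnt10a and Wnt3. Lower were Wnt3a (-1.52 ± 0.12, adjusted p = 8.29e-08), Fgf17 (-1.38 ± 0.13, adjusted p = 3.47e-07), Fgf8 (-1.25 ± 0.23, adjusted p = 0.000265), Wnt5a (-0.98 ± 0.09, adjusted p = 3.55e-07) and Fgf3 (-0.97 ± 0.20, adjusted p = 0.000632). The count of 18 calls fell to 11 without Ring1a/b-dKO replicate 1. The calls of Fgf18 and Wnt10a were each lost without at least 3 of the single libraries.

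Several ligand genes lie side by side. Wnt3a and Wnt9a were both highest in Ring1a/b-dKO but differed in Pcgf-6KO, and the other Wnt pairs described here differed in level. Wnt3a and Wnt9a start 16176 bases apart on opposite strands of chromosome 11. Wnt9a averaged 12.7 ± 0.82 TPM in Pcgf-6KO and 14.2 ± 0.49 TPM in Ring1a/b-dKO, against 0.69 ± 0.12 TPM in WT. Wnt3a averaged 0.99 ± 0.28 TPM in Pcgf-6KO and 4.66 ± 0.36 TPM in Ring1a/b-dKO, against 0.51 ± 0.11 TPM in WT. Between Pcgf-6KO and Ring1a/b-dKO the log2 difference was -1.52 ± 0.12 for Wnt3a (adjusted p = 8.29e-08), and that of -0.15 ± 0.09 for Wnt9a did not pass the test (adjusted p = 0.149). Wnt1 and Wnt10b start 11707 bases apart on opposite strands of chromosome 15, and Wnt1 stayed at or under 0.55 TPM in every library while Wnt10b reached 6.48 TPM. Wnt6 and Wnt10a, separated by 6194 bases on chromosome 1, and Wnt3 and Wnt9b, whose starts lie 24329 bases apart on opposite strands of chromosome 11, each had 1 member at a few TPM and 1 member at 1.52 TPM or less on average.

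Fgf3, Fgf4 and Fgf15 lie in this order on the plus strand of chromosome 7, with 2931 bases between Fgf3 and Fgf4 and 31288 between Fgf4 and Fgf15. Fgf4, the main Fgf ligand of embryonic stem cells and no member of the 37, averaged 136 ± 8.08 TPM in Ring1a-KO, 132 ± 2.2 TPM in Ring1b-KO, 41.3 ± 1.43 TPM in Ring1a/b-dKO, 68.7 ± 1.41 TPM in Pcgf-4KO and 11.9 ± 1.16 TPM in Pcgf-6KO, against 110 ± 4.77 TPM in WT. Fgf4 was called higher in both single knockouts and lower in the other 3, whereas Fgf3 was called higher in all 5.

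**Figure D4:**
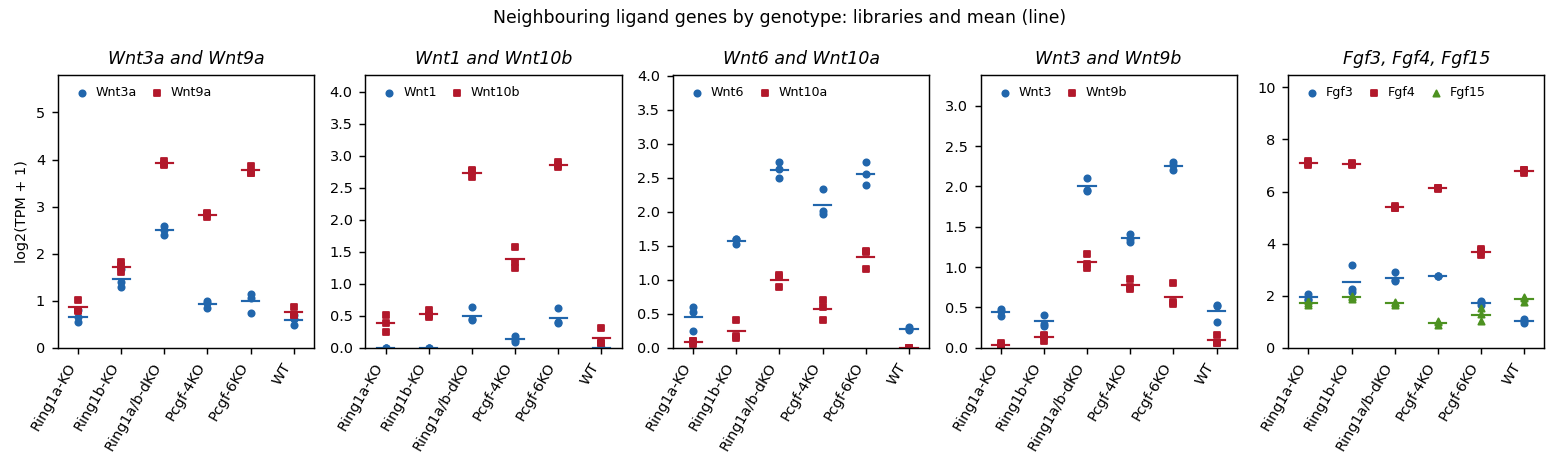
log2(TPM + 1) of neighbouring ligand genes in each library by genotype, with a line for the mean. Wnt9a is high in both Ring1a/b-dKO and Pcgf-6KO while Wnt3a is high in Ring1a/b-dKO, Wnt1 stays low beside Wnt10b, and Fgf4 falls to 11.9 TPM in Pcgf-6KO while Fgf3 stays above WT.

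Genes that release, receive, restrain or respond to these ligands were counted from further lists. The counts stand beside 48.6% of all genes tested called higher and 15.8% lower in Ring1a/b-dKO, and 51.7% higher and 22.5% lower in Pcgf-6KO, so that a list with about 1 in 2 genes higher lies near the share over all genes. Of 7 genes for ligand export and release, 5 were higher and 1 lower in Ring1a/b-dKO and 5 higher and 2 lower in Pcgf-6KO (list medians 0.88 and 1.02). Quantile normalization left 3 higher and 2 lower in Ring1a/b-dKO. Wls, the carrier that brings Wnt proteins to the cell surface, rose with them, to 9.24 ± 0.61 TPM in Ring1a/b-dKO and 19.9 ± 1.31 TPM in Pcgf-6KO, against 1.0 ± 0.09 TPM in WT (log2 fold changes 2.36 ± 0.09 in Ring1a/b-dKO and 3.38 ± 0.09 in Pcgf-6KO, adjusted p = 5.98e-12 and 4.18e-14). Notum, a secreted enzyme that inactivates Wnt proteins by removing their lipid, fell to 8.14 ± 1.06 TPM in Ring1a/b-dKO and 2.29 ± 0.49 TPM in Pcgf-6KO, against 22.8 ± 1.99 TPM in WT. Of the 15 Wnt receptor genes, 12 were higher and 3 lower in Ring1a/b-dKO (8 and 3 under median ratio scaling) and 7 higher and 6 lower in Pcgf-6KO (3 and 9 under quantile normalization), where the share higher was near the 51.7% of all genes. Fzd9 rose by 1.48 and Fzd5 changed by -0.88 in Ring1a/b-dKO on the log2 scale, and in Pcgf-6KO the kinase-like receptor Ryk rose by 1.47 and Fzd5 changed by -1.65.

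Secreted Wnt inhibitors were divided, with 2 of 6 higher and 2 lower in Ring1a/b-dKO and 2 higher and 3 lower in Pcgf-6KO (1 and 4 in each under quantile normalization). Sfrp5 changed by 2.34 in Ring1a/b-dKO and 1.03 in Pcgf-6KO, Sfrp4 by -0.90 in Ring1a/b-dKO, and Sfrp1 by -2.23 in Pcgf-6KO. Of 10 Wnt target genes, 7 were higher and 2 lower in Ring1a/b-dKO, 6 higher and 3 lower in Pcgf-6KO (2 and 4 under quantile normalization) and 5 lower in Ring1a-KO. The Pcgf-6KO counts lie near the shares over all genes (51.7% and 22.5%). Cdx1, a homeobox gene of the posterior embryo, rose to 13.3 ± 0.79 TPM in Ring1a/b-dKO and 4.72 ± 0.24 TPM in Pcgf-6KO, against 0.53 ± 0.02 TPM in WT. Ccnd1, which encodes cyclin D1, fell to 29.0 ± 0.57 TPM in Ring1a/b-dKO and 13.4 ± 1.51 TPM in Pcgf-6KO, against 70.4 ± 2.09 TPM in WT.

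Fgf receptor genes were called higher or not called in Ring1a/b-dKO and Pcgf-6KO, whereas Fgf target genes were divided in Ring1a/b-dKO and mostly lower in Pcgf-6KO; the difference between the lists was not tested. Of 6 receptor genes, 4 were higher in Ring1a/b-dKO and 5 in Pcgf-6KO (2 under quantile normalization), led by Fgfr3 (2.35 in Ring1a/b-dKO and 1.68 in Pcgf-6KO). Of 11 Fgf target genes, 5 were higher and 4 lower in Ring1a/b-dKO, 1 higher and 8 lower in Pcgf-6KO and 2 higher and 7 lower in Ring1b-KO, with list medians of 0.01, -1.08 and -0.36. Median ratio scaling gave 4 higher and 7 lower in Ring1a/b-dKO. Dusp6, a phosphatase of ERK, was at 85.2 ± 3.52 TPM in Ring1a/b-dKO and 28.4 ± 1.33 TPM in Pcgf-6KO, against 30.1 ± 1.27 TPM in WT. Etv5, a transcription factor downstream of ERK, fell to 89.1 ± 2.35 TPM in Ring1a/b-dKO, against 191 ± 3.63 TPM in WT. Spry4, a feedback inhibitor, fell to 5.32 ± 0.77 TPM in Pcgf-6KO, against 29.1 ± 0.56 TPM in WT. Dusp4 rose by 0.44 in Pcgf-6KO, a call that quantile normalization ended. Among 5 tested of the other 14 Fgf genes, Fgf22 rose by 1.17 in Ring1a/b-dKO and Fgf13 by 2.02 in Pcgf-6KO, and Fgf4 was lower in both.

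Bmp target genes were mostly higher. In Ring1a/b-dKO and in Pcgf-6KO, 8 of 9 were called higher and 1 lower (list medians 1.41 and 1.67), beside 48.6% and 51.7% of all genes called higher, and the lower one was Id4 in both. Bambi turned to lower in both under quantile normalization, leaving 7 of 9. Smad6, an inhibitory Smad induced by Bmp signals, rose to 12.3 ± 0.41 TPM in Ring1a/b-dKO, against 1.31 ± 0.28 TPM in WT. Msx2, a homeobox gene, rose to 17.2 ± 0.38 TPM in Pcgf-6KO, against 0.53 ± 0.12 TPM in WT. Of 6 Bmp receptor genes 4 were higher in each, with Bmpr2 at 0.81 in Ring1a/b-dKO and Acvr2a at 1.14 in Pcgf-6KO, and Bmpr1b was lower in both (-0.38 in Ring1a/b-dKO and -0.90 in Pcgf-6KO). Quantile normalization left 1 receptor gene higher in Ring1a/b-dKO and 3 in Pcgf-6KO. Of 5 tested Bmp antagonist genes 4 were higher in each knockout, led by Nbl1 at 10.7 ± 1.35 TPM in Ring1a/b-dKO and 12.9 ± 1.64 TPM in Pcgf-6KO, against 0.88 ± 0.17 TPM in WT.

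Hedgehog pathway genes were divided. Of 6 receptor genes 4 were higher and 2 lower in Ring1a/b-dKO, and 3 higher and 2 lower in Pcgf-6KO, near the 51.7% of all genes called higher there. Quantile normalization gave 2 higher and 2 lower in Ring1a/b-dKO and 1 higher and 4 lower in Pcgf-6KO. The co-receptor gene Boc rose by 1.96 in Ring1a/b-dKO and 0.96 in Pcgf-6KO, whereas Ptch1, the receptor that is itself induced by Hedgehog signals, changed by -0.48 in Ring1a/b-dKO. Gli1, the usual readout of the pathway, fell to 11.4 ± 0.55 TPM in Ring1a/b-dKO and 5.5 ± 1.39 TPM in Pcgf-6KO, against 15.4 ± 1.0 TPM in WT. Gli2 rose by 0.88 in Ring1a/b-dKO, a call that quantile normalization ended.

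**Figure D5:**
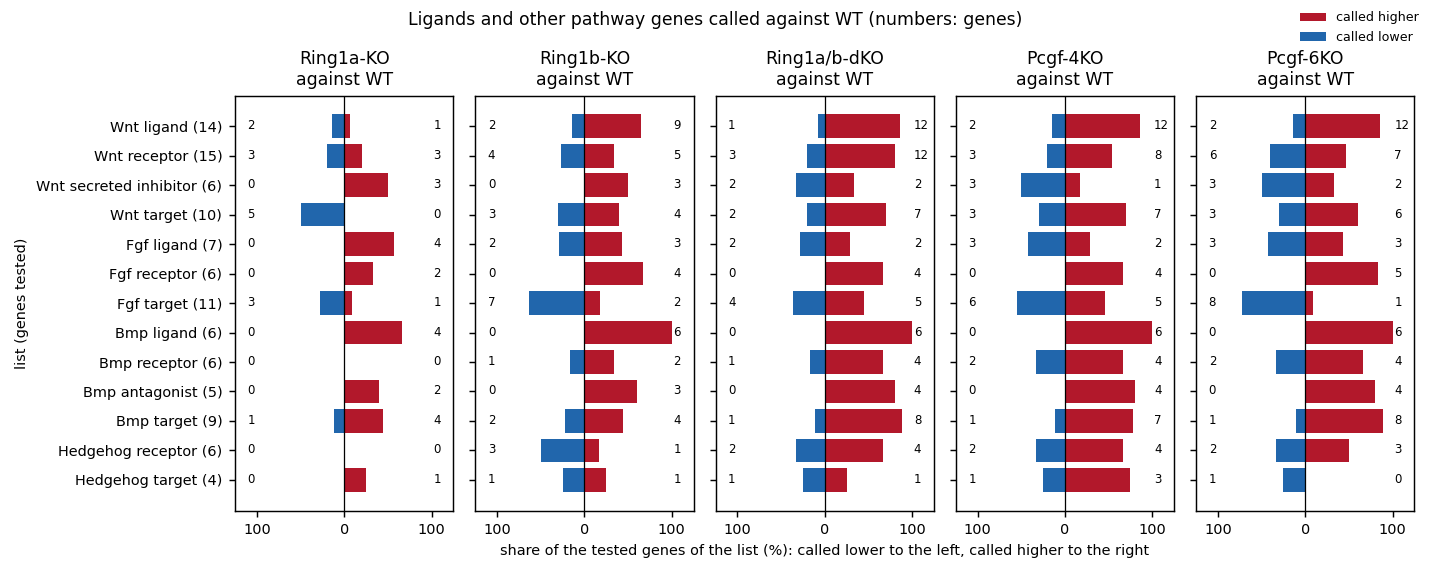
Share of the tested genes of 13 lists that were called higher (right, in red) or lower (left, in blue) in each knockout against WT, with the number of genes printed at the edges and the number tested beside each list name. All 6 Bmp ligands are higher in 4 of 5 knockouts, 12 of 14 Wnt ligands in Ring1a/b-dKO, Pcgf-4KO and Pcgf-6KO, and 8 of 11 Fgf targets are lower in Pcgf-6KO. Of all genes tested, 34.7% were called higher in Ring1b-KO, 48.6% in Ring1a/b-dKO, 47.1% in Pcgf-4KO and 51.7% in Pcgf-6KO, and 22.5% lower in Pcgf-6KO.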

How the data were processed

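The authors deposited 1 table of TPM for 56551 genes in 18 libraries, made from total RNA of trypsinized cells with a TruSeq kit, per the labels' protocols. TopHat2 2.1.1, RSEM and edgeR, with the build GRCm38.p5, are listed in the submitters' processing notes without their roles. TPM keeps no read counts, so depth is unknown and no counting interval can be given. The authors' group means were not used.

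Values were analysed on the log2(TPM + 1) scale, on which changes of low genes look smaller than they are. The filter kept genes that reached 1 TPM in 3 or more libraries. They were tested with limma 3.58.1 in R 4.3.3, two-sided, with 1 mean per genotype over all 18 libraries, 12 residual degrees of freedom and a trended empirical Bayes prior. P-values were adjusted by Benjamini-Hochberg over all genes within each comparison. Gene lists are described by counts and medians. Promoter windows came from RefSeq.

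Values in every library were given for ligand genes averaging 5 TPM or more in some genotype, and for up to 5 largest called rises and 5 largest called falls of each comparison whose libraries did not overlap. Other ligand genes with library values were added after their values were seen. Pathway genes were named when they had the largest called rise or fall of their list in Ring1a/b-dKO or Pcgf-6KO against WT; a gene that met this rule is not reported here. The ligand genes and lists were chosen with earlier results of these data known. Alternatives covered the pseudocount, the filter, the scaling, the trend, the libraries fitted, a replicate block and leaving out replicates.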

Additional observations from a re-analysis of the deposited data

Results flagged for a closer look

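For 23 of the 28 ligand genes tested the effect of losing Ring1b differed between Ring1a-KO cells and WT cells by limma's interaction term, at a Benjamini-Hochberg adjusted p under 0.05. The term was positive for 20 and negative for 3, beside 33.2% and 15.5% of all genes tested. The values are the effect in Ring1a-KO cells minus the effect in WT cells, on the log2(TPM + 1) scale. For genes low in WT they depend on the pseudocount, the 1 added to TPM. With a pseudocount of 0.1, 17 terms were called positive and 3 negative. The effect in Ring1a-KO cells compares Ring1a/b-dKO with Ring1a-KO, where Ring1 was at 84.4% and 56.2% of WT. Other differences between these cells therefore cannot be told apart from the loss of Ring1b. Among the Wnt genes the difference was 2.20 for Wnt8a, 2.09 for Wnt9a, 1.97 for Wnt10b, 1.68 for Wnt7b, 1.68 for Wnt3, 1.35 for Wnt5b and 1.06 for Wnt4. It was 0.97 for Wnt3a, 0.93 for Wnt7a, 0.86 for Wnt6, 0.79 for Wnt2b, 0.64 for Wnt5a and 0.52 for Wnt11. Wnt10a, listed at 0 in WT, gave 0.67, a value that likewise depends on the pseudocount. Among the Bmp genes it was 2.03 for Bmp8b, 1.08 for Bmp6, 0.78 for Bmp8a and 0.39 for Bmp2. Ihh gave 0.83 and Fgf8 gave 1.16. The difference was negative for 3 Fgf genes, at -0.75 for Fgf3, -1.26 for Fgf17 and -1.68 for Fgf10. The terms of Wnt11 and Bmp2 were not called under median ratio scaling or quantile normalization, nor that of Wnt10a under quantile normalization.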

How the results depend on the processing

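Counts of ligand genes called depended on the filter, and in Ring1a-KO and in Pcgf-6KO against Ring1a/b-dKO also on single libraries. With a filter of 5 TPM only 12 ligand genes were tested, and 7 were called in Ring1a-KO, 12 each in Ring1b-KO, Ring1a/b-dKO, Pcgf-4KO and Pcgf-6KO against WT, 10 in Ring1a/b-dKO against Ring1b-KO, 11 in Pcgf-6KO against Pcgf-4KO, 7 in Pcgf-6KO and 9 in Pcgf-4KO against Ring1a/b-dKO, and 10 in the interaction. Of all 12762 genes tested at this filter, 3686 were called in Ring1a-KO and 7132 in Ring1b-KO against WT. The calls were 8942 in Ring1a/b-dKO, 9178 in Pcgf-4KO and 10043 in Pcgf-6KO against WT. Between knockouts 5337 to 8354 were called, and in the interaction 6754. Only 2 ligand genes averaged 5 TPM or more in WT, so calls among the others were partly set by the filter. Without a filter, which tested all 37, 6 were called in Ring1a-KO against WT and 23 to 33 in the other 9 comparisons. Of the 35397 genes then tested, 3582 were called in Ring1a-KO against WT and 6459 to 16055 in the other 9 comparisons. Leaving out single libraries gave 6 to 10 calls in Ring1a-KO (5 without both replicates 2 and 3), 21 to 23 in Ring1b-KO, 24 in Ring1a/b-dKO, 23 to 24 in Pcgf-4KO and 25 to 27 in Pcgf-6KO against WT. It gave 24 to 26 in Ring1a/b-dKO against Ring1b-KO, 19 to 21 in Pcgf-6KO against Pcgf-4KO, 11 to 17 in Pcgf-6KO and 19 to 20 in Pcgf-4KO against Ring1a/b-dKO, and 21 to 23 in the interaction.

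Fgf8 changed sign without passing the test: left-out single libraries gave -0.21 to 0.10 in Ring1a-KO, the highest without WT replicate 1, and it was 0.14 without both replicates 2 and 3, and under quantile normalization -0.11 in Pcgf-4KO and -0.05 in Pcgf-6KO. The cause was not tested. Over the named genes, with the counts above left out, 1039 of 1069 values from other settings and 749 of 802 from left-out libraries kept their direction and their side of the threshold. These genes were named mainly for large changes or high levels, and 116 of their 123 results were called, so this agreement was partly set by the choice. Over all 28 tested ligand genes, quantile normalization ended 8 calls and added 4 in Ring1b-KO against WT. With the replicate number as a block, 22 ligand genes were called in the interaction, 17 in Pcgf-6KO against Ring1a/b-dKO and 11 in Ring1a-KO against WT. The numbers do not pair the libraries: over 45 same-numbered pairs, deviations from the group means correlated at -0.109 to 0.0714, and 5 of 18 libraries correlated best with their own number. Unknown depth limits what can be said of genes near 0 TPM.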
